A study of Rattus norvegicus with 2 samples.

Results

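The guanylin system of the gut was followed here through 5 genes, taken by symbol from the 32883 genes of both count matrices. They encode the peptides guanylin (Guca2a, ENSRNOG00000008849) and uroguanylin (Guca2b, ENSRNOG00000008979), their receptor guanylyl cyclase C (Gucy2c, ENSRNOG00000009031), the cyclic GMP-dependent protein kinase II (Prkg2, ENSRNOG00000002361) and the phosphodiesterase 5A (Pde5a, ENSRNOG00000014443). Guanylin and uroguanylin are small peptides secreted into the gut lumen, where they bind guanylyl cyclase C on the apical membrane of epithelial cells and raise cyclic GMP. Cyclic GMP activates the kinase, which opens the chloride channel Cftr and restrains sodium uptake through the exchanger encoded by Slc9a3, and the phosphodiesterase breaks cyclic GMP down. Heat-stable toxins of enteric bacteria act on the same receptor and cause secretory diarrhoea.

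Epithelium came from the proximal jejunum of 2 male Sprague Dawley rats, an outbred strain, aged 6 to 8 weeks, weighing 180 to 200 g and fasted overnight. The labels name no genetic change and no treatment, and each rat gave 1 scRNA-seq library, so the comparisons below are between cell types with the rat as replicate (n = 2). Cells with over 5000 UMIs (unique molecular identifiers, 1 per captured transcript) and at most 40% mitochondrial UMIs were kept, which left 5988 of 12033 barcodes in rat 1 and 2230 of 8252 barcodes in rat 2. Clusters were named by marker genes, and enterocytes were cut in each rat into 3 equal groups by a villus score, the mean log-normalized level of 16 villus genes, called early, mid and mature. Levels (CPM) scale each gene's UMIs to a total of 1000000 for its class and rat.

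Of the named cells, 7 in rat 1 and 78 in rat 2 were CFTR high expressers (CHEs), which carried Cftr, Best4 and Otop2 in both rats. Goblet cells numbered 178 and 145, cycling goblet cells 181 and 18, tuft cells 11 and 130, enteroendocrine cells (EECs) 21 and 11, and crypt cells 1128 and 31. Enterocytes numbered 4067 and 1124. The CHEs, tuft cells and EECs of rat 1 and the crypt cells of rat 2 were therefore few, and 1 UMI in the 67531 UMIs of the rat 1 CHEs weighs 14.8 CPM. The median enterocyte of the 3 groups had 13.5% to 14.9% mitochondrial UMIs in rat 1 and 24.2% to 26.1% in rat 2. Only 4 retained barcodes occurred in both libraries. Cells of the leukocyte-like and erythroid-like clusters with at most 10 UMIs of 5 epithelial genes, 31 in rat 1 and 472 in rat 2, served as background for free RNA. The deposited headers name different Cell Ranger versions for the rats, so version and rat cannot be told apart.

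Guca2a and Guca2b are neighbours on chromosome 5, on opposite strands, with 0 genes between them in the RefSeq annotation of GRCr8. Their promoters (RefSeq, GRCr8, 250 bases before to 50 bases after the start site) are shown because the peptides were abundant together in CHEs and apart in goblet cells. The files use an older build (rn6), so these positions do not apply to it. The Guca2a window is chr5:138522196-138522495 on the plus strand and the Guca2b window is chr5:138534161-138534460 on the minus strand. Capitals mark matches to any of 4 short motifs searched on both strands.
Guca2a: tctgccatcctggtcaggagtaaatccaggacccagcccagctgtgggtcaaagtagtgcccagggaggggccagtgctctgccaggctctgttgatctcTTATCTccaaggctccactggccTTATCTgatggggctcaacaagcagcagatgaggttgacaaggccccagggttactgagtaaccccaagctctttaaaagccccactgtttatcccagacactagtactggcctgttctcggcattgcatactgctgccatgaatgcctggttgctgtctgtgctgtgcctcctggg
Guca2b: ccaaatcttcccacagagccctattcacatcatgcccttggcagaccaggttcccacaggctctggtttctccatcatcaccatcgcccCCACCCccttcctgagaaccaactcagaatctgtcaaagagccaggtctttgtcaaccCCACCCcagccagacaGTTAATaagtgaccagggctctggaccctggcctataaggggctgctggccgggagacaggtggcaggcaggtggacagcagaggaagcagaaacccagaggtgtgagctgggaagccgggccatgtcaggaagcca
The GATA motif AGATAA occurred in the Guca2a window at positions -150 and -127 from the start site, both on the reverse strand, and in 11.6% of all 33469 promoter windows. The HNF1 half-site GTTAAT occurred in the Guca2b window at position -87, and in 7.5% of all windows. The CACCC box CCACCC occurred in the Guca2b window at positions -161 and -103, and in 29.4% of all windows. Neither window held the TATA box letters TATAAA, which 14.2% of all windows held, and no matches overlapped. Such matches describe letters in a window and say nothing about binding. Of the 5 genes, 3 matched the promoter table, the third being Pde5a.

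Guca2a was highest in CHEs and goblet cells, and Guca2b was highest in CHEs alone among the classes. In CHEs Guca2a reached 29942 CPM (rat 1) and 19787 CPM (rat 2). In goblet cells it reached 10503 CPM (rat 1) and 17129 CPM (rat 2). CHEs and goblet cells did not overlap, and both lay above every other class in both rats. Next came enterocytes of rat 1, with 255 CPM in the early, 871 CPM in the mid and 723 CPM in the mature group. In rat 2 the same groups held 68.2, 105 and 79.9 CPM, so that mature enterocytes of rat 1 carried 9.05 times as much Guca2a as those of rat 2. Rat 1 lay above rat 2 in all 3 groups. Cycling goblet cells held 524 CPM (rat 1) and 71.2 CPM (rat 2), 7.35 times as much in rat 1.

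The background of free RNA stood at 104 CPM (rat 1) and 41.0 CPM (rat 2). In rat 2 the early, mid and mature enterocytes held only 1.665, 2.56 and 1.95 times that background. Cycling goblet cells of rat 2 held 1.74 times, with an interval (47.7 to 102 CPM) that overlapped that of the background (34.4 to 48.4 CPM). The remaining classes lay below all enterocyte groups in rat 1, while in rat 2 tuft cells lay above the early and mature groups. Tuft cells held 116 and 91.2 CPM, above the background interval in rat 2 and within it in rat 1. In rat 2, 1 tuft cell gave 50 of the 97 Guca2a UMIs, and without it the level was 44.7 CPM. EECs held 222 CPM in rat 1 (40 UMIs) and 6.41 CPM in rat 2 (1 UMI), and crypt cells held 51.0 and 18.2 CPM, below the background in both rats. Median depth was 13505 and 20797 UMIs in crypt cells against 5389 and 6742 UMIs in background cells. The same number of free UMIs per cell therefore weighs less in CPM in crypt cells. The part of depth in the low crypt level was not tested.

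CHEs held 72322 CPM (rat 1) and 138490 CPM (rat 2) of Guca2b. Mature enterocytes came next with 4493 CPM (rat 1) and 2681 CPM (rat 2), followed by mid enterocytes with 3174 and 2398 CPM. The ranges of mid and mature enterocytes overlapped, while CHEs held 16.1 times (rat 1) and 51.6 times (rat 2) the level of the mature group. Early enterocytes held 397 and 995 CPM, goblet cells 846 and 965 CPM, and cycling goblet cells 210 and 246 CPM. Goblet cells therefore carried Guca2b at the level of early enterocytes, with overlapping ranges, although Guca2a was far higher in goblet cells in both rats. Tuft cells (77.3 and 93.1 CPM) and EECs (144 and 70.6 CPM) had Poisson intervals that overlapped those of the background, at 92.2 and 84.3 CPM.

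The crypt cells of rat 2 held 1305 CPM of Guca2b against 41.4 CPM in those of rat 1. A single cell gave 750 of the 789 UMIs in rat 2, and this cell also held 14 UMIs of Cftr, Best4 and Otop2 together. Without it the level in rat 2 was 67.5 CPM, below the 84.3 CPM of the background cells, which were shallower.

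**Figure D1:**
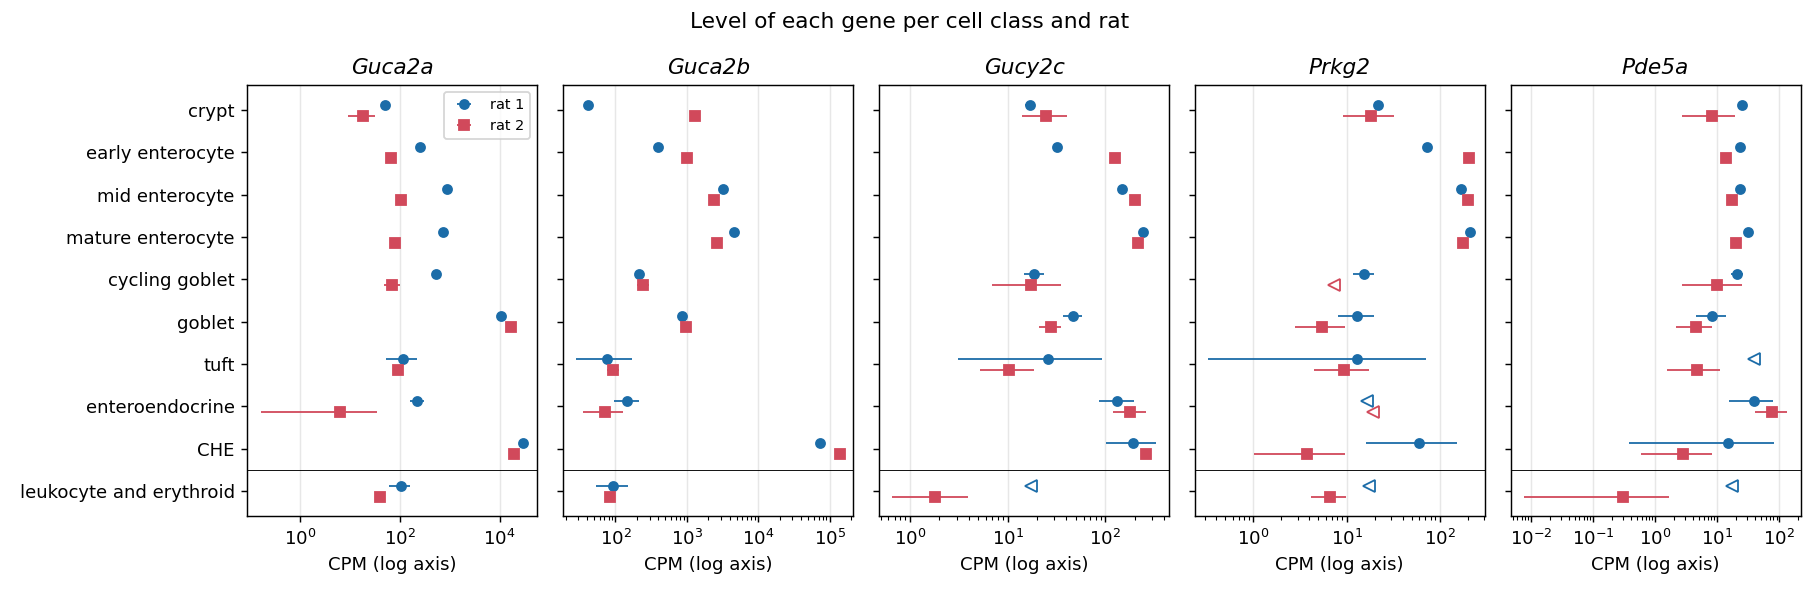
Level of each gene in CPM (log axis, a separate range per panel) for the 9 classes and, under the line, the leukocyte-like and erythroid-like background cells. Blue circles are rat 1, red squares are rat 2, bars are exact 95% Poisson intervals, and open triangles mark classes with no UMI at the limit that 3 counts allow. Guca2b of CHEs lies at 72322 and 138490 CPM, far to the right of all other classes, while Gucy2c of CHEs lies among the enterocytes.

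Cells were then thinned to 5000 UMIs each, so that cells of different depth can be compared. After thinning, all CHEs of both rats held Guca2b, with a lowest cell of 197 UMIs, a median of 405 and a highest cell of 767 in rat 1, and 321, 672.5 and 1094 UMIs in rat 2. Guca2a varied more among the same cells, with 58, 170 and 234 UMIs in rat 1 and 0, 83.5 and 359 UMIs in rat 2. Every CHE had at least 100 Guca2b UMIs, while 6 of 7 CHEs in rat 1 and 35 of 78 in rat 2 had as many Guca2a UMIs. Elsewhere 100 thinned Guca2b UMIs were reached by 1 of 4067 enterocytes in rat 1. In rat 2 they were reached by 2 of 1124 enterocytes, 2 of 145 goblet cells and 1 of 31 crypt cells. No tuft cell, EEC or cycling goblet cell reached them. Before thinning, the goblet cell of rat 2 richest in Guca2b (380 UMIs) also held 10 UMIs of Cftr, Best4 and Otop2 together. Without it the goblet level of rat 2 was 796 CPM. The early enterocyte of rat 2 richest in Guca2b (186 UMIs) held 7 UMIs of these markers.

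Goblet cells also varied widely in Guca2a. The median goblet cell held 18.5 thinned UMIs in rat 1 and 89 in rat 2, and the highest held 292 and 297. Of the goblet cells, 44 of 178 in rat 1 and 59 of 145 in rat 2 reached 100 Guca2a UMIs, and no enterocyte reached 50, the highest holding 40 in rat 1 and 27 in rat 2.

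Guca2a differed between the clusters that make up the goblet class. One goblet cluster was led by Clca1, Agr2, Spink4 and Itln1, and the other by Zg16 and Fcgbp, which encode mucus proteins. Lyz2, a Paneth marker, and Pla2g2a were also among the leading genes of the Clca1-led cluster. The clusters were told apart by their score for Paneth markers, 0.915 in the Clca1-led and 0.149 in the Zg16-led cluster. No class was named for Paneth cells, so any such cells sit within the other classes. In the Clca1-led cluster (128 cells in rat 1 and 35 in rat 2) Guca2a stood at 4380 and 7550 CPM. In the Zg16-led cluster (50 and 110 cells) it stood at 25069 and 21135 CPM, within the range of CHEs. The ratio between the clusters was 5.72 in rat 1 and 2.80 in rat 2. In a test added after these values were seen, with the clusters as separate classes, the difference was 2.79 on the log2 scale (SE 1.31, edgeR quasi-likelihood test, Benjamini-Hochberg adjusted p = 0.14, higher in 2 of 2 rats). With the rat as a block the adjusted p was 0.033, and the calls among all genes rose from 1757 of 9453 (18.6%) to 2822. None of the 5 genes passed in the fit without the block and with the filter on low counts. Without that filter Guca2a (adjusted p = 0.0076) and Prkg2 (log2 difference 2.33, adjusted p = 0.015) passed. For Prkg2 the Zg16-led cells held 17 UMIs in rat 1 and 8 in rat 2, and the Clca1-led cells 5 and 4. The ratio of its CPM between the clusters was 8.09 in rat 1 and 0.836 in rat 2, so the levels did not go the same way in both rats. The 6 Paneth markers summed to 18110 and 9428 CPM in the Clca1-led cells and to 15570 and 155 CPM in the Zg16-led cells, with Wnt11 at 0 throughout. These markers include Itln1 and Lyz2, leading genes of the Clca1-led cluster, and summed to 18330 and 807 CPM in background cells. The 4 enterocyte markers moved with Guca2a in both rats, summing to 52570 and 10920 CPM in the Zg16-led cells and to 2414 and 2247 CPM in the Clca1-led cells. The 4 erythroid markers did so too, at 3128 and 1456 CPM against 329 and 49.3 CPM, and the 6 crypt stem markers moved the other way, at 36.1 and 3.87 CPM against 498 and 225 CPM. The part of these transcripts in the Guca2a difference was not tested.

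The ratio of Guca2a to Guca2b UMIs was highest in goblet cells in both rats, while the ranges of CHEs and the enterocyte groups over the rats overlapped. Counts of both genes are of transcript ends, 1 UMI per captured transcript, so they were not divided by transcript length, and capture may differ between the genes. Goblet cells held 12.4 Guca2a UMIs per Guca2b UMI in rat 1 (exact 95% interval 11.8 to 13.1) and 17.8 in rat 2 (17.0 to 18.5). CHEs held 0.414 (0.393 to 0.436) and 0.143 (0.141 to 0.145). Mature enterocytes held 0.161 in rat 1 and 0.0298 in rat 2, below the 0.641 and 0.0686 of early enterocytes. Mid enterocytes held 0.2745 and 0.0438. Within each rat CHEs lay above mid and mature enterocytes, with counting intervals that did not overlap. Early enterocytes lay above CHEs in rat 1 and below them in rat 2.

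In every one of these classes but goblet cells the ratio was lower in rat 2. Background cells had a ratio of 1.13 (0.541 to 2.36) in rat 1 and 0.486 (0.393 to 0.598) in rat 2. The tuft cells of rat 1 had 1.5 (0.477 to 5.12), an interval that spans the background, and those of rat 2 had 0.980 (0.733 to 1.31), above it, with the 1 Guca2a-rich tuft cell included.

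**Figure D2:**
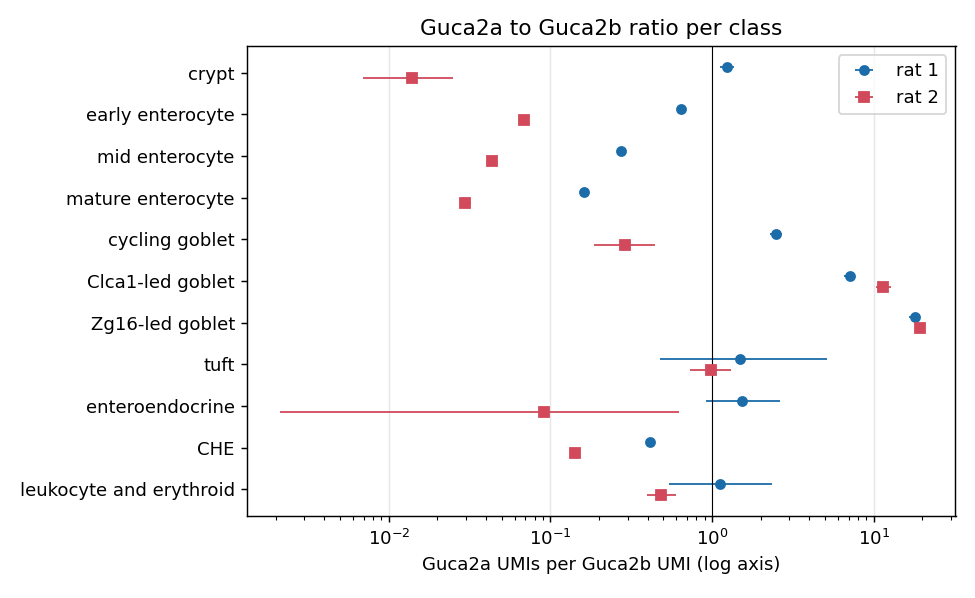
Guca2a UMIs per Guca2b UMI (log axis) in each class, with the goblet class shown as its Clca1-led and Zg16-led clusters. Circles are rat 1, squares are rat 2 and bars are exact 95% intervals for counting error. The goblet clusters lie between 7.11 and 19.3, and CHEs and mature enterocytes lie below 1 in both rats.

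The share of each peptide's UMIs that a class contributed depended on the rat. In rat 1, mid and mature enterocytes gave 38.4% and 51.3% of the Guca2b UMIs of named cells and CHEs gave 3.24%. In rat 2, CHEs gave 72.7%. Goblet cells gave 31.6% of the Guca2a UMIs in rat 1 and 61.8% in rat 2, and CHEs 3.61% and 34.4%. In rat 1 the early, mid and mature enterocytes gave 8.72%, 28.4% and 22.3% of the Guca2a UMIs, together more than goblet cells, and in rat 2 they gave 1.07%, 1.42% and 1.11%. These shares carry the number of cells per class, which the dissociation and the limits on UMIs and mitochondrial UMIs also set.

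Gucy2c, the receptor, spanned a far narrower range than its ligands and was shared by enterocytes, CHEs and EECs. Mature enterocytes held 245 CPM in rat 1 and 217 CPM in rat 2, and CHEs held 193 CPM (13 UMIs, exact Poisson interval 102 to 329) and 261 CPM (231 to 293). Mid enterocytes followed with 150 and 200 CPM, EECs with 133 CPM (24 UMIs) and 180 CPM (28 UMIs), and early enterocytes with 31.8 and 126 CPM. In the order of the mean levels, mature enterocytes, CHEs, mid enterocytes and EECs each overlapped the next, while EECs and early enterocytes did not overlap. Goblet cells held 46.3 and 27.7 CPM, crypt cells 17.0 and 24.8 CPM, cycling goblet cells 18.8 and 17.2 CPM and tuft cells 25.8 CPM (2 UMIs) and 10.3 CPM (11 UMIs). In the background cells 0 UMIs were found in rat 1, which allows up to 17.3 CPM, and 1.79 CPM in rat 2.

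After thinning, Gucy2c was found in 69.3% of mature enterocytes of rat 1 and 63.7% of rat 2, against 0 of 31 background cells in rat 1, which allows up to 9.68%, and 1.06% in rat 2. Both sets were thinned to the same depth, from medians of 11678 and 21969 UMIs in mature enterocytes and 5389 and 6742 UMIs in background cells. Among CHEs the share was 42.9% and 67.9%. Thinned cells with a receptor UMI and a UMI of either peptide made up 69.3% and 63.7% of mature enterocytes, 42.9% and 67.9% of CHEs, 12.4% and 9.66% of goblet cells and 2.84% and 9.68% of crypt cells. In mature enterocytes and CHEs these shares equal the Gucy2c shares to the digits given, since nearly every such cell held a peptide UMI.

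Prkg2, the kinase, was highest in enterocytes. Mature enterocytes held 212 and 177 CPM, mid enterocytes 168 and 202 CPM and early enterocytes 73.4 and 204 CPM, with overlapping ranges. Crypt cells held 22.0 and 18.2 CPM and goblet cells 13.1 and 5.45 CPM. CHEs had 4 UMIs in each rat, which is 59.2 CPM (16.1 to 152) in rat 1 and 3.78 CPM (1.03 to 9.68) in rat 2, the latter within the range of the background in that rat (6.58 CPM, 4.12 to 9.96).

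No Prkg2 UMI was found in EECs of either rat, which allows up to 16.7 CPM in rat 1 and 19.2 CPM in rat 2. Tuft cells had 1 and 10 UMIs, and cycling goblet cells 61 and 0. In CPM, CHEs and EECs therefore carried the receptor within the range of the enterocyte groups or just above it. Their counts of the kinase were too small to place them above the background in rat 2. The abundant peptide UMIs of CHEs lower the CPM of their other genes. With the UMIs of both peptides out of the totals, Gucy2c stood at 214 and 310 CPM in CHEs and at 246 and 218 CPM in mature enterocytes.

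Pde5a, the phosphodiesterase, was low in every class. It was highest in EECs, with 38.9 CPM in rat 1 (7 UMIs, 15.6 to 80.1) and 77.0 CPM in rat 2 (12 UMIs, 39.8 to 134). In rat 1 only 2 of 21 EECs, 9.52%, held a Pde5a UMI, and in rat 2 the share was 54.5%. Mature enterocytes held 30.7 and 20.0 CPM, and the early and mid groups 14.1 to 22.9 CPM over both rats. Crypt cells held 24.7 and 8.27 CPM. Goblet cells held 8.31 and 4.54 CPM and CHEs 14.8 CPM (1 UMI) and 2.83 CPM (3 UMIs), while tuft cells had 0 and 5 UMIs.

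CHEs were compared with the other lineages in 1 model of 18 sums of UMIs (9 classes in 2 rats), in which each lineage weighed the same. The p-values rest on the spread between the 2 rats within a class, pooled over the 9 classes and shared in part over genes. The fit treats the sums of 1 rat as independent, although they are paired by animal. The peptides and the receptor were higher in CHEs than in the mean of the other lineages, and the effectors did not pass. Against mature enterocytes alone, CHEs held 0.786 (rat 1) and 1.20 (rat 2) times the level of Gucy2c. Of the 5 genes, 3 passed the edgeR quasi-likelihood test at a Benjamini-Hochberg adjusted p below 0.05, where 9.05% of all 10364 genes tested passed. Guca2b was higher by 8.32 on the log2 scale (SE 0.63, adjusted p = 1.3e-06), Guca2a by 6.45 (SE 0.76, adjusted p = 6.0e-05) and Gucy2c by 2.66 (SE 0.39, adjusted p = 0.00045), each in 2 of 2 rats. In the rats on their own the difference was 8.20 and 8.72 for Guca2b, 6.14 and 7.85 for Guca2a and 2.09 and 2.96 for Gucy2c. Prkg2 differed by 0.99 (SE 1.99, edgeR adjusted p = 0.87), with 2.20 in rat 1 and -0.31 in rat 2. This value rests on a mean of lineages that includes EECs, which held no Prkg2 UMI. Against mature enterocytes alone CHEs held 0.279 (rat 1) and 0.0214 (rat 2) times the level of Prkg2. Pde5a differed by -1.67 (SE 0.81, adjusted p = 0.22), with 0.29 in rat 1 and -1.65 in rat 2, from 1 and 3 UMIs in CHEs. With the rat as a block the calls over all genes rose from 938 to 1581.

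Goblet cells were higher than the other lineages in guanylin, and the other 4 genes did not pass. Guca2a was higher by 5.88 on the log2 scale (SE 0.76, edgeR adjusted p = 0.00012), with 4.75 in rat 1 and 7.87 in rat 2, where 8.09% of all genes passed. Guca2b differed by 0.59 (SE 0.74, edgeR adjusted p = 0.78) and Gucy2c by -0.17 (SE 0.46, adjusted p = 0.93). Prkg2 differed by 0.75 (SE 1.86, adjusted p = 0.93) and Pde5a by -0.73 (SE 0.52, adjusted p = 0.53). The Prkg2 value also rests on EECs without a UMI, and goblet cells lay below every enterocyte group in Prkg2 in both rats. With the rat as a block 1503 in place of 838 genes passed, the other 4 members not among them.

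Tuft cells were lower in uroguanylin and in the receptor than the mean of the other lineages, which includes CHEs and enterocytes. These low levels were not particular to tuft cells. Their Guca2b (77.3 and 93.1 CPM) overlapped that of EECs (144 and 70.6 CPM). Their Gucy2c (25.8 and 10.3 CPM) overlapped that of crypt cells (17.0 and 24.8 CPM). Of the 5 genes 2 passed, where 7.72% of all genes did. Guca2b was lower (log2 difference -4.17, SE 1.10, edgeR adjusted p = 0.029) and so was Gucy2c (log2 difference -2.66, SE 0.68, adjusted p = 0.024), both in 2 of 2 rats. Guca2a differed by -3.25 (SE 1.31, adjusted p = 0.17; 0.034 with the rat as a block, under which 1349 in place of 800 genes passed). In clusters built without integration of the rats neither call held, with a Guca2b difference of 0.59 (adjusted p = 0.86) and a Gucy2c difference of -1.35 (adjusted p = 0.20).

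EECs carried the receptor and the phosphodiesterase above the mean of the other lineages. Against mature enterocytes alone they held 0.544 (rat 1) and 0.826 (rat 2) times the level of Gucy2c. For Pde5a these values were 1.27 and 3.85, with 7 UMIs in 2 of 21 EECs of rat 1. Of the 5 genes 2 passed, where 6.90% of all genes did. Gucy2c was higher by 1.78 (SE 0.44, edgeR adjusted p = 0.021), with 1.75 in rat 1 and 1.79 in rat 2, and Pde5a by 2.47 (SE 0.52, adjusted p = 0.0080), with 2.16 and 3.18. The peptides lay lower without passing, Guca2a by -2.50 (SE 1.23, adjusted p = 0.28) and Guca2b by -3.40 (SE 1.04, adjusted p = 0.065). With the rat as a block these adjusted p values became 0.035 and 0.030, and 1031 in place of 715 of all genes passed. No fold is given for Prkg2, which had no UMI in EECs.

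**Figure D3:**
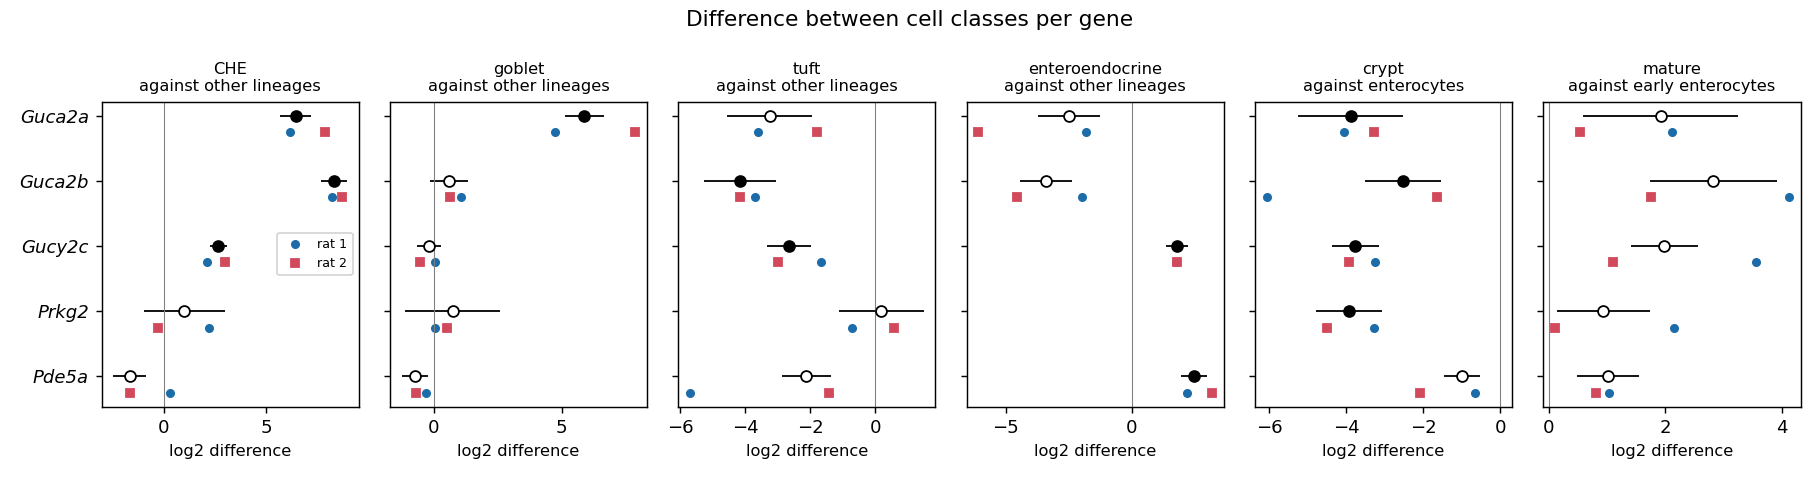
Log2 difference of each gene in the 6 comparisons of cell classes, on a separate range per panel. Black circles are the fitted differences with SE, filled where the edgeR adjusted p was below 0.05, blue circles and red squares below them are the differences in rat 1 and rat 2, and Prkg2 in EECs is left out for want of a UMI. Guca2a lies above 4 in CHEs and in goblet cells in both rats, while Guca2b does so in CHEs.

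Crypt cells lay below enterocytes in 4 of the 5 genes. Of all genes 46.6% passed in this comparison and 20.2% were lower, so that many genes separate these classes. The log2 differences were -3.89 for Guca2a (SE 1.36, edgeR adjusted p = 0.029), -2.53 for Guca2b (SE 0.98, adjusted p = 0.046), -3.76 for Gucy2c (SE 0.60, adjusted p = 0.00021) and -3.92 for Prkg2 (SE 0.85, adjusted p = 0.0022), each in 2 of 2 rats. Pde5a differed by -0.99 (SE 0.47, adjusted p = 0.098; 0.017 with the rat as a block).

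The Guca2b difference was -6.07 in rat 1 and -1.64 in rat 2. With the 1 Guca2b-rich crypt cell of rat 2 left out, a choice made after seeing it, the fitted difference was -6.06 (adjusted p = 7.9e-05), and the other 4 genes kept their calls. With it, Guca2b did not pass at a limit of 20% mitochondrial UMIs (adjusted p = 0.063), without integration (0.22) or at a clustering resolution of 1.0 (0.056).

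Between mature and early enterocytes none of the 5 genes passed the same test, in a comparison that 1.98% of all genes passed. Guca2b differed by 2.82 (SE 1.09, edgeR adjusted p = 0.15) and Gucy2c by 1.98 (SE 0.58, adjusted p = 0.074). With the rat as a block these were 3.06 (adjusted p = 0.024) and 2.13 (adjusted p = 0.0062), and the calls over all genes rose from 205 to 2517. The differences for Guca2a (1.92, SE 1.32), Prkg2 (0.94, SE 0.80) and Pde5a (1.02, SE 0.54) had adjusted p values of 0.42, 0.52 and 0.28 and did not pass with the block. The groups were cut within each rat, and the lowest of 10 equal groups of enterocytes had a mean villus score of 0.667 in rat 1 and 1.67 in rat 2, so early enterocytes of rat 2 were further along this score. With the groups cut over both rats together, Gucy2c differed by 2.36 (adjusted p = 0.0081). Over all alternatives Gucy2c passed under 5 and Guca2b under 3.

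Along 10 equal groups by villus score, the levels of Guca2b and Gucy2c climbed together in rat 1, which is described without a test. In rat 1 Guca2b went from 53.1 CPM in the lowest group to 4758 CPM in the highest. The lowest value was below the 92.2 CPM of the background cells, which were shallower. In the same rat Gucy2c went from 12.4 to 269 CPM, with an increase at every step for both genes. In rat 2 Guca2b went from 382 CPM to a highest value of 2839 CPM in group 9, and Gucy2c from 76.8 CPM to 225 CPM in the same group. Prkg2 went from 35.2 to 224 CPM in rat 1 but was highest in group 2 of rat 2, with 227 CPM, and lowest in its group 10, with 146 CPM.

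Guca2a peaked midway in both rats, at 906 CPM in group 5 of rat 1 and 139 CPM in group 5 of rat 2, and stood at 722 and 54.9 CPM in group 10. Pde5a moved between 19.7 and 36.4 CPM in rat 1 and between 11.4 and 22.7 CPM in rat 2. Many cells lay close to a cut between the early, mid and mature groups, with 818 of 4067 enterocytes of rat 1 and 364 of 1124 of rat 2 within 0.1 of the upper cut.

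**Figure D4:**
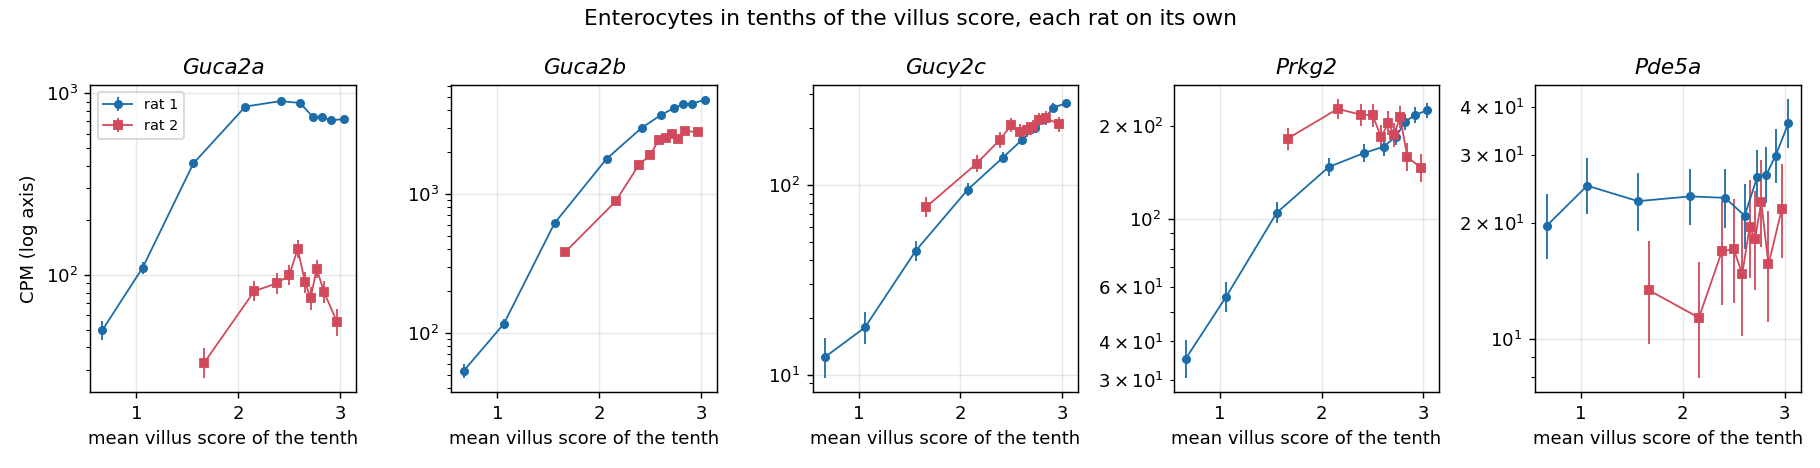
CPM (log axis) of each gene in 10 equal groups of enterocytes by villus score, plotted at the mean score of the group, for rat 1 (blue circles) and rat 2 (red squares), with exact 95% Poisson bars. Guca2b and Gucy2c are higher at high than at low scores in both rats, Guca2a turns down after its peaks of 906 and 139 CPM, and Guca2a of rat 2 lies below that of rat 1 throughout their shared range.

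Other genes of cyclic GMP signalling were read from a list of 50 symbols, of which 46 are in the files and 23 had enough counts to test. In CHEs 3 of 23 passed, all higher, where 9.05% of all genes passed, with a list median of -0.25 on the log2 scale beside -0.14 over all genes. These were the subunits of the soluble, nitric oxide-responsive guanylyl cyclase, Gucy1a1 (1 UMI in rat 1 and 12 UMIs in rat 2, edgeR adjusted p = 0.0014) and Gucy1b1 (1 and 26 UMIs, adjusted p = 0.00067), and the cyclic nucleotide exporter Abcc5 (29.6 CPM from 2 UMIs and 62.4 CPM, log2 difference 4.33, SE 0.64, adjusted p = 0.00044). Both cyclase subunits had no UMI in goblet cells, tuft cells, EECs and mature enterocytes of either rat, so no fold is given. The evidence of rat 1 is a single UMI for each subunit.

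In goblet cells 2 of 23 passed, both higher, which is near the 8.09% of all genes that passed (list median 0.14, all genes 0.19). Pde2a, a phosphodiesterase that cyclic GMP stimulates, stood at 44.5 and 34.1 CPM and was higher by 2.90 (SE 0.44, edgeR adjusted p = 0.00051). Slc9a3r2, a PDZ scaffold that tethers the sodium-proton exchanger and the kinase, stood at 13.1 CPM (22 UMIs) and 13.2 CPM (29 UMIs) and was higher (adjusted p = 0.00015). No fold is given for it, since CHEs of both rats held no UMI.

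In tuft cells 4 of 23 passed, all higher, where 7.72% of all genes passed (list median -0.16, all genes 0.01). Pde2a was higher by 2.44 (SE 0.52, edgeR adjusted p = 0.0069) and Pde6d, a carrier of prenylated proteins, by 1.67 (SE 0.41, adjusted p = 0.018). The regulatory subunits of protein kinase A were also higher, Prkar2b with 2 UMIs in rat 1 and 27 UMIs in rat 2 (adjusted p = 0.00046) and Prkar2a by 1.64 (SE 0.42, adjusted p = 0.026). Background cells of rat 2 also held Pde2a (22.4 CPM) and Prkar2b (20.0 CPM) beside 55.5 and 25.4 CPM in its tuft cells, and the part of leukocyte RNA was not tested.

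In EECs 4 of 23 passed, all higher, where 6.90% of all genes passed (list median 0.69, all genes -0.19). They were the exporter Abcc4 (2 and 4 UMIs, edgeR adjusted p = 0.023), the subunits Prkar2b (2 and 3 UMIs, adjusted p = 0.031) and Prkar1a (higher by 1.01, SE 0.29, adjusted p = 0.048), and the scaffold Pdzk1 (adjusted p = 0.0095). Pdzk1 held 22.2 CPM (rat 1) and 301 CPM (rat 2), with log2 differences of 0.20 and 4.84 in the rats.

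Between crypt cells and enterocytes 8 of the 23 genes were lower, where 20.2% of all genes were, and 6 were higher, where 26.4% of all genes were (list median -0.62, all genes 0.09). The lower genes included all 4 transport targets. The exchanger Slc9a3 stood at 4.27 and 28.1 CPM in crypt cells and 67.3 and 156 CPM in mature enterocytes (log2 difference -4.01, SE 0.85, edgeR adjusted p = 0.0017). The exchanger Slc9a2 differed by -5.05 (SE 0.68, adjusted p = 6.5e-05), and the anion exchangers Slc26a6 and Slc26a3 by -3.95 (SE 0.58, adjusted p = 0.00012) and -3.45 (SE 0.88, adjusted p = 0.0058). Of the PDZ scaffolds Pdzk1 (-6.35, SE 1.13), Slc9a3r1 (-4.34, SE 0.80) and Pdzd3 (-4.07, SE 0.66) were lower, as was the cyclic GMP-specific phosphodiesterase Pde9a (-2.77, SE 0.54). The remaining PDZ scaffold, Slc9a3r2, went the other way.

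The 6 genes higher in crypt cells were Gucy1a1, Prkar2a, Prkar2b, Pde3b, Abcc4 and Slc9a3r2. All but Prkar2a (log2 difference 1.54, SE 0.38, edgeR adjusted p = 0.0046) rested on at most 45 UMIs in rat 1 and at most 5 UMIs in rat 2. The 5 leukocyte markers summed to 240 and 521 CPM in crypt cells and to 6.56 and 15.9 CPM in mature enterocytes, with Cd52 at 0 in both classes of rat 2, and their part in these differences was not tested. Between mature and early enterocytes 0 of 23 passed (list median 0.60, all genes -0.03), at a design in which 2275 of 10364 genes had an unadjusted p below 0.05 and 664 passed with DESeq2.

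For each gene the others with the most similar levels over the 9 classes, up to 3, were found among 8984 genes, by the lower of the Pearson r values of the rats. This is a description over 9 classes that share their libraries, and carries no p. Guca2a was nearest to Sptssb, a subunit of serine palmitoyltransferase (r = 0.912 and 0.931), and Areg, an EGF receptor ligand (0.916 and 0.892), was also among its nearest. Sptssb stood at 163 and 277 CPM in CHEs and was second highest in goblet cells, with 57.6 CPM in rat 1, and below 2 CPM in the other 7 classes of both rats. Guca2b was nearest to Plk3, a stress-responsive kinase (0.892 and 0.893), the antimicrobial lectin Reg3b (0.883 and 0.944) and Perp (0.893 and 0.872), a protein of cell junctions. Reg3b stood at 19090 and 44910 CPM in CHEs.

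Gucy2c was nearest to the protease inhibitor Cst3 (0.886 and 0.895), the urate transporter Slc2a9 (0.870 and 0.887) and the ethanolamine kinase Etnk1 (0.980 and 0.862). Prkg2 was nearest to LOC108348140 (0.990 and 0.990), the purine-degrading enzyme Xdh (0.966 and 0.956) and the amino acid transporter subunit Slc7a9 (0.979 and 0.952). Pde5a was nearest to Ttyh3 (0.876 and 0.922), Ecpas (0.869 and 0.983) and Serpinb5 (0.944 and 0.844). Among the 10 pairs of members, r was highest between Guca2a and Guca2b (0.833 and 0.650), followed by Guca2b and Gucy2c (0.767 and 0.537). It was lowest in rat 2 between Guca2a and Pde5a (-0.007 and -0.709).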

How the data were processed

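For each rat the authors deposited raw counts of UMIs in 1 gene-by-cell table, produced by Cell Ranger (3.1.0 and 5.0.1 in the file headers) on rn6 and limited to barcodes called as cells. The rats gave 99986348 and 66469907 UMIs. Cells were kept as in the study's methods (over 200 and under 5800 genes, over 5000 UMIs, at most 40% mitochondrial UMIs) and grouped by shared-neighbour clustering in Seurat (5.3.0, on R 4.3.3, with 2000 variable genes, 20 components, resolutions 0.3 and 0.5, integration of the rats). The members and the other genes of the cyclic GMP list did not enter those variable genes. Names were given by marker lists with levels set after the clusters were seen, so names may differ from the study's. Clusters with a Ptprc UMI in over 25% of cells or with hemoglobin were set apart, 232 cells of unnamed clusters were left out, and so were 102 cells of epithelial clusters with at most 10 UMIs of Epcam, Krt8, Krt18, Krt19 and Krt20. Doublets were kept; Scrublet (scanpy 1.11.5) called 116 and 2 cells, too few in rat 2 to show that it worked there.

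UMI counts were summed per rat and class and tested with edgeR 4.0.16 (TMM scaling, filterByExpr, quasi-likelihood test, Benjamini-Hochberg adjustment, threshold 0.05), and the step was tested on simulated data. Values for 1 rat are untested differences in log2 CPM (prior count 2) on TMM-scaled totals. Like the fitted differences, they can therefore depart from the CPM levels, also in sign. Prkg2 in rat 2 stood at 177 CPM in mature and 204 CPM in early enterocytes, while this difference was 0.108. Both rats supplied every class, which pairs the sums by animal: deviations from the class means correlated at 0.083 to 0.810 over 36 pairs of classes (median 0.219). The study names no block, so the block is an alternative. Intervals (exact Poisson or Clopper-Pearson, 95%) and limits from 3 counts cover counting error only.

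The members, lists and tests were chosen with earlier results of these data known. The text names the 5 members, the listed genes that passed a test and the 3 genes nearest to each member with at least 50 UMIs in each rat, of which 1 is not reported here; Slc9a3, Reg3b and Sptssb levels were picked for printing after they were seen.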

Additional observations from a re-analysis of the deposited data

How the results depend on the processing

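The differences of the 5 members in CHEs kept their direction and their side of the threshold under all 10 alternatives run for them. So did Guca2a in goblet cells and Gucy2c and Pde5a in EECs. Leaving out 1 rat is not counted among these alternatives and is given below. Over 7 comparisons and 330 values under alternatives, 295 kept both, 4 of those called were no longer past the threshold, 22 newly passed and 9 changed sign. The changes of sign were Guca2b in goblet cells without integration (-0.65) and in the Clca1-led cluster alone (-0.27), Gucy2c in goblet cells with the Zg16-led cluster alone (0.48), Prkg2 in goblet cells with DESeq2 (-0.27), at resolution 1.0 (-0.081) and in the Clca1-led cluster (-0.39), Prkg2 in tuft cells with DESeq2 (-0.73) and at 20% mitochondrial UMIs (-0.041), and Guca2b in tuft cells without integration (0.59), for which the cause was not tested. Of these only the last had been called. Without a filter on low counts, which tests more genes, the calls numbered 1455 for CHEs, 1304 for goblet cells, 1278 for tuft cells, 1407 for EECs and 1397 for mature against early enterocytes. With the replicate block, which uses the pairing by animal, they numbered 1581 for CHEs, 1503 for goblet cells, 1349 for tuft cells, 2517 for mature enterocytes and 2822 between the goblet clusters, and it changed no other call of a member than those given above. The Zg16-led cluster alone, an alternative added after seeing the data as were the Clca1-led cluster alone, the test between the clusters and the removal of 1 crypt cell, gave 2338 calls for goblet cells. Calls for mature against early enterocytes numbered 664 with DESeq2, 1366 at 20% mitochondrial UMIs, 474 without integration, 91 at resolution 1.0, 6 with cells below the epithelial limit kept and 1247 with maturity groups cut over both rats, so this count is unstable and the cause was not tested. Without thinning, the mean over the rats of the share of mature enterocytes with a UMI was 92.5% for Gucy2c (89.8% and 95.2%) and 78.5% for Prkg2 (87.9% and 69.1%). With 1 rat left out, Prkg2 in CHEs ranged from -0.31 to 2.20 and Pde5a in CHEs from -1.65 to 0.29, so their sign depended on the rat. Guca2b in crypt cells ranged from -6.07 to -1.64. All of these are values with no test. The 7 CHEs, 11 tuft cells and 21 EECs of rat 1 and the 31 crypt cells of rat 2 limit the precision there.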
